A study of Mus musculus with 6 samples.

Results

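Lcn2 and 9 acute phase genes were followed in mRNA sequencing of whole mouse testes: Saa1, Saa2, Saa3, Hp, Cp, Lrg1, Orm1, S100a8 and S100a9. They are 10 of the 21786 gene symbols shared by all 6 count files. They were chosen by name because Lcn2 had more reads than any other gene in 1 of the libraries, Stra8-deficient library 3. In that library Lcn2 had 43278 reads, and the next genes, Ctsd and Apoe, had 37037 and 35587. Because that count chose Lcn2, its difference between genotypes over all 6 libraries is given below as a description, with no test.

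The 3 Stra8-deficient libraries came from Stra8 -/- males aged 1 year with grossly enlarged testes. The 3 wild-type libraries came from Stra8 +/+ males aged 2 to 4 months, and all animals had a C57BL/6 background. The labels describe the enlarged testes as consisting largely of cells resembling type A spermatogonia. Age and enlargement follow genotype, so the 3 cannot be told apart. The labels describe each library as a separate male, so the p-values measure the spread between males within a genotype.

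Acute phase proteins are made in quantity by the liver, and locally by many tissues, when cytokines such as interleukin 6 and interleukin 1 act through STAT3, C/EBP and NF-kB factors. Lipocalin 2, the product of Lcn2, binds the siderophores with which bacteria take up iron, and it is stored in neutrophil granules and secreted by macrophages and epithelia. The other proteins carry lipid (serum amyloid A), haemoglobin (haptoglobin, from Hp), copper (ceruloplasmin, from Cp) or small molecules (orosomucoid, from Orm1), or form the neutrophil calcium-binding pair S100a8 and S100a9.

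Reads in genes numbered 6733128 to 12425689 per library, and 3 reads, the limit that a count of 0 allows, amount to 0.243 to 0.447 counts per 1000000 reads (CPM) before scaling. Such limits and the counting intervals below cover counting error alone. CPM values below are scaled for library composition (TMM). Of 15018 genes with enough reads to test, 75.8% were called at an adjusted p of 0.05 by edgeR's quasi-likelihood test with Benjamini-Hochberg adjustment, 39.0% higher and 36.7% lower in the Stra8-deficient libraries. The biological coefficient of variation was 38.1% among the Stra8-deficient and 7.41% among the wild-type libraries. Of 12 spermatogonial genes, 11 were called higher, and 8 of 8 genes of haploid germ cells were called lower. The spermatogonial list also holds Kit and Stra8, so it does not mark undifferentiated cells alone. Stra8 itself was read in every library, at 18.1 to 23.7 CPM with and 17.1 to 18.7 CPM without the deficiency, and the deleted part of the gene is not given in the labels, so its reads do not check the genotype.

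The Stra8-deficient libraries also differed from each other in markers of other cells. Summed over 8 Leydig cell markers, CPM was 340, 18.4 and 2799 in Stra8-deficient libraries 1, 2 and 3, against a wild-type range of 800 to 1302. Summed over 12 macrophage markers, it was 244, 206 and 737, against a wild-type range of 118 to 126. Library 3 therefore had the highest sum of both lists, and library 2 the lowest sum of the Leydig list by far. Summed over 12 Sertoli cell markers, CPM was 474, 283 and 1246, against a wild-type range of 2239 to 2475, again highest in library 3 and lowest in library 2 among the Stra8-deficient libraries. Of these 12 genes 9 were called lower and 0 higher, beside 36.7% lower and 39.0% higher over all tested genes. Summed over 12 markers of ductal epithelium, CPM was 203, 113 and 126, against a wild-type range of 160 to 179. Of the 8 that were tested, 6 were called higher and 2 lower, beside 39.0% higher and 36.7% lower over all tested genes. The part of these cells in the results below was not tested.

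Lcn2, on chromosome 2, was read at 234, 0.286 and 2899 CPM in Stra8-deficient libraries 1, 2 and 3. In wild-type libraries 1, 2 and 3 it was read at 177, 166 and 207 CPM. Library 3 was far above every wild-type library, library 1 was slightly above them and library 2 was far below them, so the Stra8-deficient values lay on both sides of the wild-type range. Behind these values stood 2330, 3 and 43278 Stra8-deficient reads and 1134, 1174 and 1129 wild-type reads. The 3 reads of library 2 have an exact 95% Poisson interval of 0.619 to 8.77. Ranked by reads among all genes of its library, Lcn2 stood at 561, 15114 and 1 in Stra8-deficient libraries 1, 2 and 3 and between 1403 and 1867 in wild type. It took 0.351% of the reads of library 3 (95% Wilson interval 0.347 to 0.354) and 0.0132% to 0.0168% of the wild-type reads.

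The mean of Lcn2 was 1044 ± 1610 CPM (SD, n = 3) in the Stra8-deficient and 183 ± 21.4 CPM (SD, n = 3) in the wild-type libraries. Its coefficient of variation was 154% in the first group and 11.7% in the second. Library 3 held 94.9% of the Lcn2 reads of the Stra8-deficient group. The fitted log2 fold change over all 6 libraries was 2.51 ± 1.95 (SE), which describes mainly that 1 library. The distance from the lowest to the highest Stra8-deficient library was 12.48 on the log2 CPM scale, rank 1 among the 15018 tested genes, whose median was 0.73. Over the wild-type libraries the distance for Lcn2 was 0.32, against a median of 0.26.

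The comparison that did not use the choosing library had 2 Stra8-deficient and 3 wild-type libraries. There Lcn2 had a log2 fold change of -0.66 ± 1.43 (SE) and an adjusted p of 0.685 by edgeR's quasi-likelihood test, while 76.8% of genes were called. No difference was shown, and the 2 remaining Stra8-deficient libraries themselves lay on opposite sides of the wild-type values. This result depends on the model: with a separate variance per genotype (limma voom) the log2 fold change was -4.44, with an adjusted p of 0.00744. In bulk tissue, fewer cells of a type and less RNA per cell cannot be told apart.

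**Figure D1:**
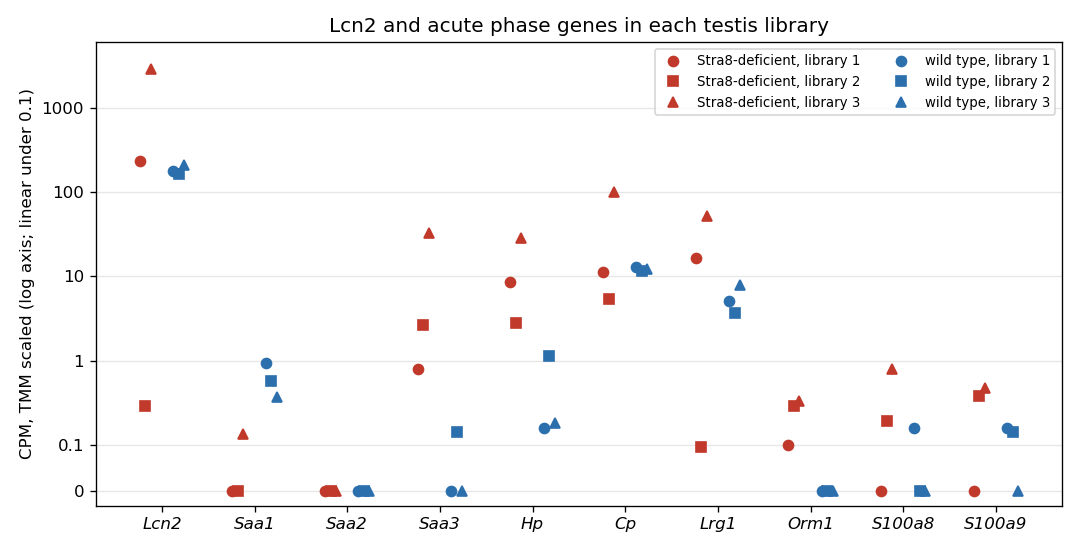
CPM of each gene (log axis, linear under 0.1) in each library, red for Stra8-deficient and blue for wild type, 1 symbol per library number. Lcn2 spans 0.286 to 2899 CPM among the Stra8-deficient libraries and 166 to 207 CPM among the wild-type libraries. Stra8-deficient library 3 is the highest point for Lcn2, Saa3, Hp, Cp and Lrg1. It is also the highest, on few reads, for Orm1, S100a8 and S100a9.

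Lrg1, on chromosome 17, encodes a secreted leucine-rich glycoprotein that modulates TGF-beta signalling in blood vessels. It was read at 16.5, 0.0953 and 51.6 CPM in Stra8-deficient libraries 1, 2 and 3 and at 5.15, 3.67 and 7.89 CPM in the wild-type libraries. As for Lcn2, libraries 1 and 3 were above and library 2 below every wild-type library. The reads numbered 164, 1 and 771 against 33, 26 and 43. The log2 fold change of Lrg1 was 2.05 ± 1.33 (SE) with an adjusted p of 0.201 by edgeR's quasi-likelihood test. Stra8-deficient library 2 decided this: without it the log2 fold change was 2.58 ± 0.52 (SE) with an adjusted p of 0.00331, in a fit that called 38.7% of genes higher. Without library 3 it was 0.57, with an adjusted p of 0.662.

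The promoters of Lcn2 and Lrg1 are shown because these were the tested members with the widest spread over the Stra8-deficient libraries and the same order of libraries. They are the 250 bases before the RefSeq start (build GRCm38.p6), 5′ to 3′ on the strand of the gene. That of Lcn2 is chr2:32387740-32387989 (minus strand) and that of Lrg1 is chr17:56121947-56122196 (minus strand). Capitals mark matches, on either strand, to short forms of the C/EBP motif (TTNNGNAA), the NF-kB motif (GGNNTTTCC), the STAT3 motif (TTCNNNGAA) and the TATA box (TATAAA).
Lcn2: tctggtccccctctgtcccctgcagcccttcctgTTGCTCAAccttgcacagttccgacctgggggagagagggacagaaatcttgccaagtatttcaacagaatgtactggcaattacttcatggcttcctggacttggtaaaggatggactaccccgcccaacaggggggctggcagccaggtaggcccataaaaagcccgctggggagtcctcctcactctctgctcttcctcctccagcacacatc
Lrg1: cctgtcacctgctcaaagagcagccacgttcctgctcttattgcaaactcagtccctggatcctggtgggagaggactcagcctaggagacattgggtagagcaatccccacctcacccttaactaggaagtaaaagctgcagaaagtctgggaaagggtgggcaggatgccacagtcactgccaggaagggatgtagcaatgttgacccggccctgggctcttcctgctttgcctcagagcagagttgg
The Lcn2 window holds 1 match, to the C/EBP form, 209 to 216 bases before the start, and the Lrg1 window holds none. Of 32851 promoter windows of this length, 36.8% hold the C/EBP form, 4.93% the NF-kB form, 7.02% the STAT3 form and 12.4% the TATA box. A match is a description of letters, not a bound site. The identity of both windows after alignment was 54.5%.

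Hp, on chromosome 8, encodes haptoglobin, which binds free haemoglobin for uptake through Cd163 on macrophages. It was read at 8.63, 2.76 and 28.5 CPM in the Stra8-deficient libraries and at 0.156, 1.13 and 0.183 CPM in the wild-type libraries. All 3 Stra8-deficient libraries were above all 3 wild-type libraries, which was so for 40.7% of tested genes. The reads numbered 86, 29 and 425 against 1, 8 and 1. Hp rose with a log2 fold change of 4.66 ± 1.03 (SE) and an adjusted p of 0.00300 by edgeR's quasi-likelihood test. Of the 9 genes besides Lcn2, 3 had enough reads for this test, and Hp was the 1 called, beside 39.0% of all tested genes called higher. Hp passed the low-count filter through its Stra8-deficient reads alone, so nothing is read from that count. Without library 3, in which Hp was highest, the log2 fold change was 3.41 ± 0.78 (SE) with an adjusted p of 0.00481.

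Cp, on chromosome 3, encodes ceruloplasmin, a copper enzyme that oxidises iron on its way out of cells. It was read at 11.2, 5.43 and 101 CPM in the Stra8-deficient and at 12.8, 11.4 and 12.1 CPM in the wild-type libraries. Library 3 stood above all others, and libraries 1 and 2 were below every wild-type library. The reads numbered 112, 57 and 1510 against 82, 81 and 66. The log2 fold change of Cp was 1.70 ± 1.02 (SE) with an adjusted p of 0.167 by edgeR's quasi-likelihood test. Without library 3 it was -0.55 ± 0.33 (SE), with an adjusted p of 0.167. Without library 2 it was 2.16 ± 0.75 (SE), with an adjusted p of 0.0335, so both its sign and its call rested on single libraries. Exons of Cp overlap Hps3 on the opposite strand. As strand handling is not given in the sources used here, reads of the pair cannot be told apart within the overlapping bases.

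**Figure D2:**
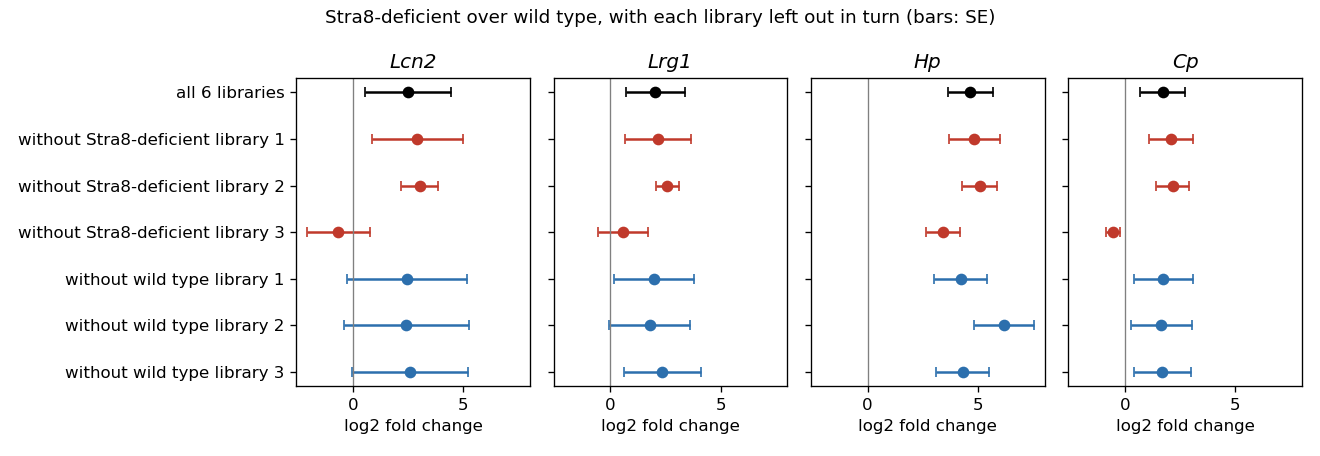
Log2 fold change of Stra8-deficient over wild type for the 4 tested genes, with all 6 libraries (black) and with each library left out in turn (red for Stra8-deficient, blue for wild type); bars are SE. Without Stra8-deficient library 3 Lcn2 is at -0.66 and Cp at -0.55, while Hp stays between 3.41 and 6.18 whichever library is left out.

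The 3 serum amyloid genes, all on chromosome 7, differed from each other. Serum amyloid A is carried on high density lipoprotein, and Saa3 is the form made largely outside the liver, by macrophages and fat cells among others. Stra8-deficient libraries 1, 2 and 3 held 8, 28 and 483 reads of Saa3 (0.803, 2.67 and 32.3 CPM), and the wild-type libraries held 0, 1 and 0. All 3 Stra8-deficient libraries were above the wild-type libraries, as for 40.7% of tested genes. Library 3 held 93.1% of the Saa3 reads of its group. The rate of reads was 278 times the wild-type rate, with a 95% counting interval of 49.6 to 10991, since the wild-type group had 1 read.

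The low-count filter removed Saa3. In a fit over 18938 genes without that filter, Saa3 rose, with an adjusted p of 0.0270 by edgeR's quasi-likelihood test, and 33.1% of genes were called higher. Saa1 had 0, 0 and 2 reads in the Stra8-deficient and 6, 4 and 2 in the wild-type libraries, or at most 0.937 CPM. As CPM the groups did not overlap, all wild-type values being higher, as for 39.4% of tested genes. The wild-type rate was 11.2 times the Stra8-deficient rate, with a 95% counting interval of 2.50 to 103. In the same unfiltered fit Saa1 fell, with an adjusted p of 0.0153, and 31.9% of genes were called lower. Saa2 had 0 reads in all 6 libraries.

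The promoters of the 3 serum amyloid genes are shown because Saa1 and Saa2 are near copies while Saa3 is not, which also limits how far reads of Saa1 and Saa2 can be separated. Windows and capitals are as above: Saa1 is chr7:46742981-46743230 (minus strand), Saa2 is chr7:46751583-46751832 (plus strand) and Saa3 is chr7:46715677-46715926 (minus strand).
Saa1: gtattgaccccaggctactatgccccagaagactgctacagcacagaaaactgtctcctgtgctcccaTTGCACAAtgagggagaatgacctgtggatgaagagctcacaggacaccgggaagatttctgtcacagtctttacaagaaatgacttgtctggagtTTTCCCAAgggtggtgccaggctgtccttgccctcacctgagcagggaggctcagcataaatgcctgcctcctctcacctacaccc
Saa2: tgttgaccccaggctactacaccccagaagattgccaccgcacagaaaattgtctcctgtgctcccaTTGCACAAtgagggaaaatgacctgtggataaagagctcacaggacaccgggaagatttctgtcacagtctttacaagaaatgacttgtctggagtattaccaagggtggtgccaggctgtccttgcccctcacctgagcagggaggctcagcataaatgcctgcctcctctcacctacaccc
Saa3: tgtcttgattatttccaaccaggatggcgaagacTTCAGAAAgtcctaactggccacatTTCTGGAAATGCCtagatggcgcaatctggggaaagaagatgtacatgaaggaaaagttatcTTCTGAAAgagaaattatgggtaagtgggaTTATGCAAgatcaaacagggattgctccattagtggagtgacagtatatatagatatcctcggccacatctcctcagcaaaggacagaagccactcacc
Saa1 and Saa2 shared 238 of 251 aligned positions (94.8%) in these windows and 87.3% over their longest coding transcripts. The windows of Saa1 and Saa3 shared 52.2%. The Saa3 window holds 4 matches to the C/EBP form and 1 to the NF-kB form, which overlaps 1 of the 4. The Saa1 window holds 2 matches to the C/EBP form and the Saa2 window 1. No window of the 8 members found in the promoter table holds the STAT3 form.

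Orm1, on chromosome 4, had 1, 3 and 5 reads in the Stra8-deficient and 0 in each wild-type library. Set against the limit of 3 reads over the wild-type group, the rate of its 9 Stra8-deficient reads was 1.61-fold higher. That ratio leaves out the counting error of the 9 reads, so it is not a lower bound. In the unfiltered fit it was called higher with an adjusted p of 0.0483 by edgeR's quasi-likelihood test, close to the threshold. Its longest transcript is 91.0% identical to that of Orm2 and 86.4% to that of Orm3, so the split of reads between these copies is uncertain.

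The neutrophil pair, on chromosome 3, was near the limit of detection. S100a8 had 0, 2 and 12 reads in the Stra8-deficient and 1, 0 and 0 in the wild-type libraries, a ratio of rates of 7.49 with a 95% counting interval of 1.14 to 317. S100a9 had 0, 4 and 7 reads against 1, 1 and 0, a ratio of 2.94 with an interval of 0.642 to 27.3. For both genes the groups overlapped, since Stra8-deficient library 1 had 0 reads. Neither passed the unfiltered test, with adjusted p of 0.163 and 0.321 by edgeR's quasi-likelihood test.

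Levels of different genes can be set side by side per kb of merged exons (GENCODE M21). On that scale the wild-type mean of Lcn2 was 69.9 CPM per kb, followed by Lrg1 at 3.96, Cp at 1.27, Hp at 0.305 and Saa1 at 0.251. In Stra8-deficient library 3 the order was Lcn2 at 1105 CPM per kb, Lrg1 at 36.7, Hp at 17.7, Saa3 at 12.4 and Cp at 10.6. In Stra8-deficient library 2, Hp was highest at 1.72 CPM per kb and Saa3 next at 1.02, while Lcn2 was at 0.109 and Lrg1 at 0.0677. Lcn2 was thus the leading member in 5 of the 6 libraries and among the lowest in the other, where it rested on 3 reads. Lrg1, Hp and Cp each had Stra8-deficient library 3 above library 1 and library 1 above library 2, as did 17.3% of all tested genes. Lcn2 had the same order, but its place in library 3 is what chose it. Saa3, Orm1, S100a8 and S100a9 instead had library 2 above library 1, all but Saa3 on few reads.

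The authors' deposited table of their own comparison lists 9 of the 10 genes. In the authors' deposited table Hp has a log2 ratio of 4.69 with a corrected p of 7.25e-13, and Saa3 has 7.83 with 9.09e-13. Saa1 has -3.50 with 0.00260 in the authors' deposited table. For Cp the authors' deposited table gives 1.68 with a corrected p of 0.00507, and for Lrg1 2.02 with 0.00594, where the quasi-likelihood test made no call. Besides Lcn2, 6 of 8 listed genes have a corrected p under 0.05 in the authors' deposited table, which is so for 66.0% of its 19119 genes.

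The genes whose pattern over the 6 libraries was most like that of Lcn2 were Insl3, Hsd17b3, Cyp11a1, Apoc1 and Agt. Likeness was the root mean square difference of log2 CPM after each gene was centred on its own mean, among the 9725 genes whose average log2 CPM reached 4. Insl3, a Leydig cell hormone, was at 0.69, where the median gene was at 3.90. It was read at 117, 0.0953 and 1200 CPM in Stra8-deficient libraries 1, 2 and 3 and at 280, 186 and 222 CPM in the wild-type libraries. Library 3 was again the highest and library 2 the lowest, but library 1 of Insl3 was below the wild-type range, where Lcn2 was above it.

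Hsd17b3 and Cyp11a1, enzymes of testosterone synthesis, were at 1.27 and 1.40, Apoc1, an apolipoprotein, at 1.47 and Agt, the angiotensin precursor, at 1.48. Of these 5 genes, 3 are on the list of 8 Leydig cell markers, and Agt is on the list of other acute phase genes. None of the 8 Leydig markers was called between genotypes, and their median log2 fold change was 0.05, beside 0.11 over all tested genes. Among the 15017 other tested genes Lrg1 was at place 9 by likeness to Lcn2, Cp at 128 and Hp at 8137. This ranking describes 6 libraries, in which 1 high and 1 low library set most of the distance.

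**Figure D3:**
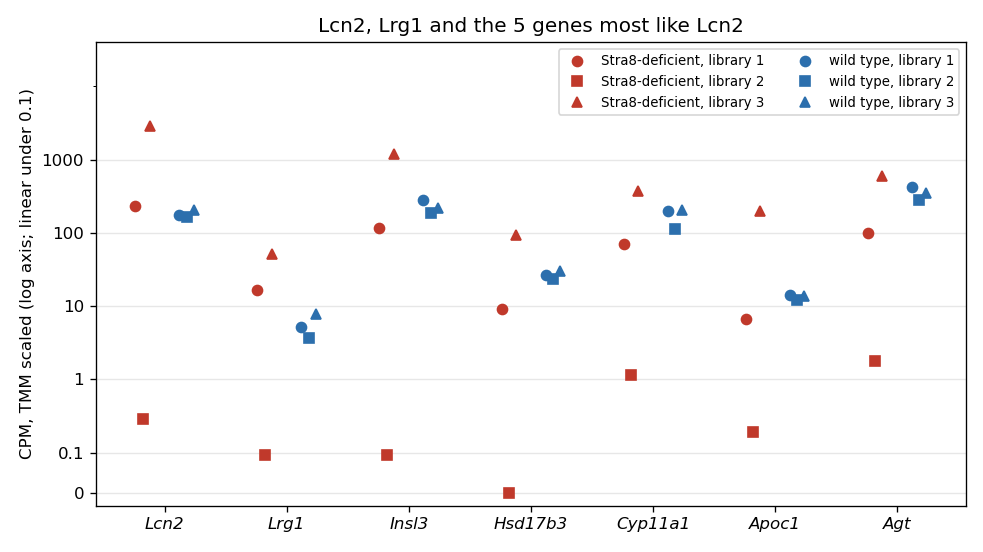
CPM (log axis, linear under 0.1) of Lcn2, Lrg1 and the 5 genes most like Lcn2 in each library, red for Stra8-deficient and blue for wild type. In every gene shown, Stra8-deficient library 3 is the highest and library 2 the lowest of the 6, with Lcn2 at 2899 and 0.286 CPM and Insl3 at 1200 and 0.0953 CPM.

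Relative to the Leydig markers, Lcn2 was not at a fixed level. For each read of the 8 Leydig genes there were 0.689, 0.0155 and 1.04 Lcn2 reads in Stra8-deficient libraries 1, 2 and 3. In the wild-type libraries there were 0.146, 0.207 and 0.159. Libraries 1 and 3 were above and library 2 below the wild-type ratio. These ratios were chosen after the values were seen, and the part of Leydig or macrophage RNA in the Lcn2 level was not tested.

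Neutrophils store lipocalin 2 and S100a8 and S100a9, so their markers were counted beside the members. Of 24 measured neutrophil markers, 14 had fewer than 4 reads in every library and 9 of them had 0 in all 6, among them Camp, Ctsg, Retnlg and Fcnb. Ltf, the granule protein lactoferrin, had 1, 0 and 1 reads, against 0 in each wild-type library. Summed CPM of the list was 55.3, 48.2 and 75.9 with Stra8 deficiency, against a wild-type range of 45.7 to 47.8. Granule genes went opposite ways: Prtn3, a granule protease, rose by 5.78 ± 0.45 (SE, log2) with an adjusted p of 3.29e-06 by edgeR's quasi-likelihood test. Mpo, the granule peroxidase, fell by 4.94 ± 0.50 (SE, log2), with 1, 3 and 2 reads against 27, 47 and 33 and an adjusted p of 1.95e-05. Mpo passed the low-count filter through its wild-type reads alone. Without that filter its log2 fold change was -4.91, with an adjusted p of 1.25e-05 by the same test.

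Of 10 tested macrophage markers, 6 were called higher and 0 lower, beside 39.0% higher and 36.7% lower over all tested genes. Lyz2, macrophage lysozyme, had 787, 1018 and 4429 reads in the Stra8-deficient and 23, 40 and 23 in the wild-type libraries. Lyz1 had 1, 0 and 395 reads against 0 in every wild-type library, so like Saa3 it was read mostly in library 3. Alb, the defining transcript of hepatocytes, had at most 2 reads in any library. Of the 13 hepatocyte markers 3 were tested, and Ahsg, Tat and Apoa2 were called higher, beside 39.0% of all tested genes. The summed CPM of the list was 15.7, 15.0 and 26.3 against a wild-type range of 3.67 to 4.22. Ahsg, the plasma protein fetuin A, made up most of it in the Stra8-deficient libraries, with 93, 79 and 237 reads against 2, 2 and 3. Ahsg passed the low-count filter through its Stra8-deficient reads alone, so nothing is read from the count of hepatocyte markers called. The haemoglobin genes Hba-a1, Hba-a2 and Hbb-b2 had 0 reads in all 6 libraries. The 7 red cell markers summed to 25, 114 and 23 reads against 153, 211 and 163, nearly all of them from Alas2, an enzyme of haem synthesis, which was the 1 tested and was called lower. The part of these cells in the members' levels was not tested. Of 16 epididymis markers, 12 had fewer than 4 reads in every library.

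Other acute phase genes were counted beside the members. Of 30 measured, 15 were tested, 10 were called higher and 1 lower, with a median log2 fold change of 2.54, beside 39.0% called higher, 36.7% lower and a median of 0.11 over all tested genes. These values rest on the low-count filter, which genes such as Il1rn, Hpx and Itih4, with at most 3 reads in any wild-type library, passed through their Stra8-deficient reads alone. Without the filter 26 were tested, 9 were called higher and 4 lower, with a median of 0.93, beside 33.1% of all genes called higher and 31.9% lower. Il1rn, the secreted antagonist of interleukin 1, had 26, 50 and 91 reads in the Stra8-deficient and 0, 2 and 0 in the wild-type libraries, a ratio of rates of 44.7 with a 95% counting interval of 12.2 to 372. It rose with an adjusted p of 2.80e-04 by edgeR's quasi-likelihood test. C3, the central complement component, had 656, 420 and 2296 reads against 35, 46 and 72 and rose by 3.38 ± 0.56 (SE, log2), with an adjusted p of 5.79e-04.

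Serpina3n, a protease inhibitor, had 246, 10 and 2572 reads against 9, 14 and 10, with library 2 below the wild-type range as CPM. Its log2 fold change was 5.24 ± 1.75 (SE) with an adjusted p of 0.0324 by edgeR's quasi-likelihood test. That call was lost when any 1 wild-type library was left out, with adjusted p of 0.127, 0.139 and 0.102 without libraries 1, 2 and 3, and without the low-count filter, with an adjusted p of 0.0791. Cfb, complement factor B, was the gene called lower, at a log2 fold change of -1.25 ± 0.41 (SE) and an adjusted p of 0.0200, with 24, 27 and 86 reads against 48, 57 and 57. Its call was lost without wild-type library 3, with an adjusted p of 0.0771, and when libraries were scaled by size alone, with an adjusted p of 0.168.

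Of 34 genes of acute phase signalling, 27 were tested, 11 were called higher and 5 lower, with a median log2 fold change of 0.39, beside 39.0% higher and 36.7% lower over all tested genes. The share called higher was thus near that of all genes, while the share called lower was below it. Without the low-count filter 33 were tested, 12 were called higher and 5 lower, beside 33.1% and 31.9% of all genes. Il6, the main inducing cytokine, had 0 reads in every library. Il1b, the interleukin 1 beta gene, had 1, 2 and 6 reads in the Stra8-deficient and 13, 19 and 12 in the wild-type libraries. It fell by 3.16 ± 0.51 (SE, log2) with an adjusted p of 4.05e-04 by edgeR's quasi-likelihood test. Il1b passed the low-count filter through its wild-type reads alone. Without that filter its log2 fold change was -3.14, with an adjusted p of 6.83e-04 by the same test. Among the transcription factors Cebpb rose by 3.99 ± 0.32 (SE, log2), with 644, 447 and 531 reads against 16, 20 and 20 and an adjusted p of 3.92e-06. Socs3, the feedback inhibitor of the interleukin 6 pathway, rose by 3.70 ± 0.27 (SE, log2), with 349, 300 and 465 reads against 12, 20 and 14 and an adjusted p of 2.13e-06. Unlike Lcn2, both were high in all 3 Stra8-deficient libraries, with library 2 far above the wild-type range.

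The kinases Jak1 and Jak2 rose by 1.27 ± 0.17 and 2.25 ± 0.23 (SE, log2), with adjusted p of 1.19e-04 and 2.31e-05 by edgeR's quasi-likelihood test. Stat3, the factor they activate, had a log2 fold change of 0.20 ± 0.22 (SE) with an adjusted p of 0.428. Scaled by library size alone Stat3 was called higher, at 0.81. Rela, an NF-kB subunit, had a log2 fold change of -0.83 ± 0.21 (SE) with an adjusted p of 0.00589, a call lost at -0.21 when libraries were scaled by size alone. Nfkbiz, an NF-kB cofactor for Lcn2 in other cells, rose by 0.96 ± 0.26 (SE, log2) with an adjusted p of 0.00710.

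Of 19 receptors and partners of these proteins, 15 were tested, 7 were called higher and 2 lower, with a median log2 fold change of 0.85, beside the same 39.0% and 36.7% over all tested genes. Slc22a17, described as a receptor for lipocalin 2, had 399, 440 and 760 reads in the Stra8-deficient and 120, 134 and 88 in the wild-type libraries. It rose by 1.30 ± 0.20 (SE, log2) with an adjusted p of 2.59e-04 by edgeR's quasi-likelihood test. All 3 Stra8-deficient libraries were above the wild-type libraries, as for 40.7% of tested genes. Hmox1, the enzyme that degrades haem, had 3159, 2595 and 5778 reads against 113, 96 and 94 and rose by 4.30 ± 0.24 (SE, log2), with an adjusted p of 4.19e-07. Slc40a1, the iron exporter ferroportin, rose by 3.73 ± 0.38 (SE, log2) with an adjusted p of 2.13e-05. Scarb1, a lipoprotein receptor that binds serum amyloid A, fell by 2.21 ± 0.28 (SE, log2) with an adjusted p of 8.67e-05.

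Of 13 measured iron genes, 11 were tested, 6 were called higher and 1 lower, with a median log2 fold change of 1.38, where 39.0% and 36.7% of all tested genes were so called. Without the low-count filter all 13 were tested, with 6 called higher and 1 lower, beside 33.1% and 31.9% of all genes. Ftl1, the ferritin light chain, had 168, 79 and 518 reads in the Stra8-deficient and 15, 2 and 0 in the wild-type libraries. It rose by 4.45 ± 0.96 (SE, log2) with an adjusted p of 0.00276 by edgeR's quasi-likelihood test. Ftl1 passed the low-count filter through its Stra8-deficient reads. Without that filter its log2 fold change was 4.47, with an adjusted p of 0.00665 by the same test. Ferritin light chain has near-identical copies in the genome, so its reads are uncertain. Slc11a1, the iron transporter of macrophage phagosomes, rose by 3.06 ± 0.67 (SE, log2) with an adjusted p of 0.00252. Slc25a37, the mitochondrial iron importer, fell by 1.95 ± 0.19 (SE, log2) with an adjusted p of 1.75e-05. Trf, transferrin, had 639, 176 and 1752 reads against 168, 193 and 125 and a log2 fold change of 1.38 ± 0.58 (SE) with an adjusted p of 0.0597. Without Stra8-deficient library 2 the value of Trf was 1.79 with an adjusted p of 6.09e-04, in a fit that called 38.7% of genes higher. Without Stra8-deficient library 1 it was 1.35, with an adjusted p of 0.129. Without Stra8-deficient library 3 it was 0.65, with an adjusted p of 0.239.

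The families of the members were read unevenly. Of 14 other S100 genes, 6 were tested, 4 were called higher and 1 lower, with a median log2 fold change of 1.48, beside 39.0% and 36.7% over all tested genes. Without Stra8-deficient library 3, 2 of the 6 were called higher and the median was 0.63. With any 1 wild-type library left out 2 were also called higher, but the median stayed at 1.44 to 1.49. S100a1 and S100a10 rose by 1.93 ± 0.54 and 1.73 ± 0.47 (SE, log2), with adjusted p of 0.00919 and 0.00853 by edgeR's quasi-likelihood test, and S100b fell by 2.13 ± 0.60 (SE, log2) with an adjusted p of 0.00944. Of 18 other lipocalins, 4 were tested, 1 was called higher and 2 lower, with a median log2 fold change of -0.9996, beside 39.0% and 36.7% over all tested genes. Without the low-count filter the median turned to 1.96, with 10 tested, 3 called higher and 2 lower, beside 33.1% and 31.9% of all genes. Rbp4, the retinol carrier, rose by 1.96 ± 0.26 (SE, log2) with an adjusted p of 1.07e-04, while Ambp and C8g fell by 2.07 ± 0.55 and 1.19 ± 0.26 (SE, log2), with adjusted p of 0.00710 and 0.00267. Ptgds, a lipocalin that makes prostaglandin D2, had 107, 0 and 6654 reads against 2138, 1588 and 1337. It was above the wild-type range in library 3 and below it in libraries 1 and 2, and its adjusted p was 0.700.

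**Figure D4:**
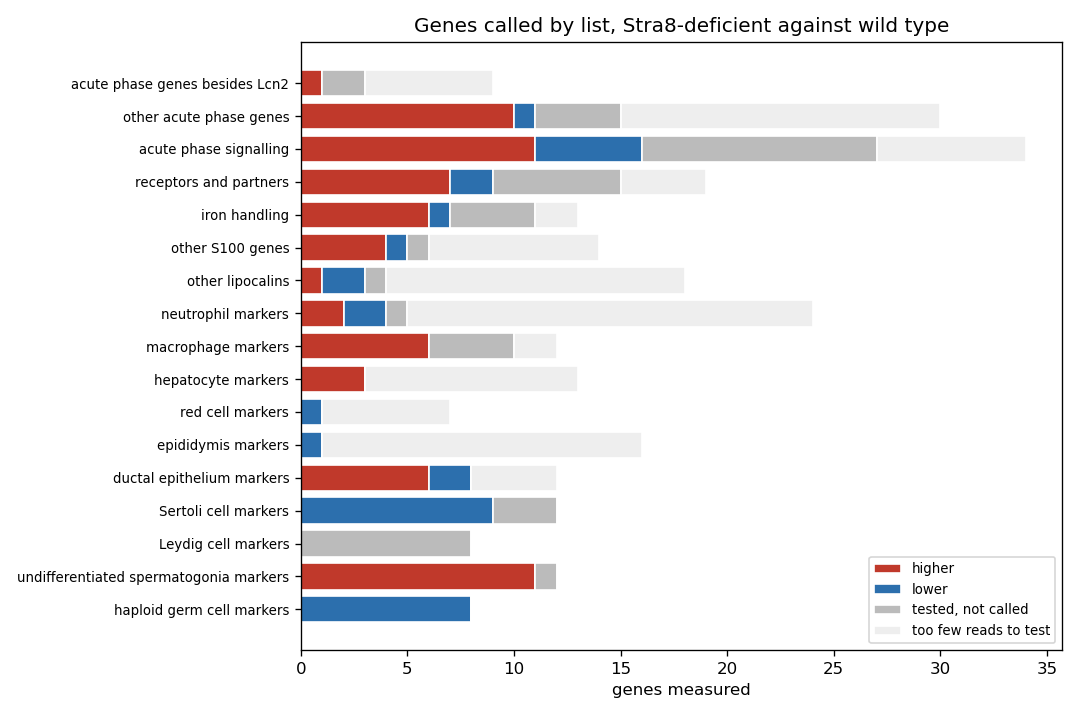
Number of measured genes in each list (x axis) that were called higher (red) or lower (blue), tested and not called (dark grey) or too little read to test (light grey), Stra8-deficient against wild type. Of the 9 acute phase genes besides Lcn2, 1 was called higher, and of 30 other acute phase genes 10 were called higher and 1 lower.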

How the data were processed

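Per the labels' protocols, RNA of whole testes stripped of the tunica was made into poly(A) libraries. TopHat, HTSeq, edgeR and the mm9 build were used by the authors, per the submitters' processing notes. No tool version, strand setting or annotation is stated (not given in the sources used here). Deposited values are unnormalised counts of whole reads for each gene symbol. HTSeq's counters, which name no gene, held 20.9% to 34.5% of reads and were left out. Stra8-deficient library 3 was counted over 23285 symbols and the others over 22055, and the 21786 shared symbols were used. The authors' deposited table gives log2 ratios and p-values.

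Counts were scaled by TMM (factors 0.796 to 1.27), filtered with filterByExpr (15018 genes kept) and compared with edgeR's quasi-likelihood test (edgeR 4.0.16, R 4.3.3) with genotype as its term and Benjamini-Hochberg adjustment over all genes. Alternatives used DESeq2 1.42.0 and limma 3.58.1, other scalings and filters, and left out each library in turn. The procedure was tested on simulated data with the same spread in both groups and few changed genes. These data differ in both respects, so the simulation does not show how the procedure performs on them. The members, gene lists and tests were chosen with earlier results of these data known. Besides the members, the rule named the 2 called genes with the largest change in each pathway list's commoner direction and the 1 in the other, ligands, receptors, factors and defining markers of 3 lists, and the 5 genes most like Lcn2. C3, Trf, Ptgds, Lyz1, Alb, Apoa2, Tat, Hpx and Itih4 were named after their values were seen. Promoters are from RefSeq (GRCm38.p6) and matched 8 of 10 members by symbol. No coordinates of the mm9 files were used.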

Additional observations from a re-analysis of the deposited data

How the results depend on the processing

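Hp was called in all 16 alternatives, at 3.41 to 6.18 (log2). Most of these keep a low-count filter, which Hp passed through its Stra8-deficient reads alone. Without that filter Hp was at 4.68, with an adjusted p of 0.00594 by edgeR's quasi-likelihood test. The log2 fold change of Lcn2 was -1.40 with limma voom and a variance per genotype, and -0.66 to 3.03 with 1 library left out. With 1 library left out Cp was -0.55 to 2.16 and Stat3 -0.063 to 0.27, both lowest without Stra8-deficient library 3. Without that library Lcn2 was 0.0051 with library size alone and -4.44 with limma voom. Of the 9 members besides Lcn2, 3 were tested and 1 was called in the main fit, where 75.8% of all tested genes were called. Without the low-count filter 8 were tested and 4 called, beside 33.1% of all genes called higher and 31.9% lower. With 1 library left out 3 to 4 were tested and 1 to 3 called. Other acute phase genes called lower numbered 0 with library size alone, 4 without the filter, 2 with limma voom and 0 to 2 with 1 library left out. Library size alone gave 3 signalling genes and 1 lipocalin called lower, and 11 receptors and 10 iron genes called higher. Other S100 genes called higher numbered 2 to 4 with 1 library left out. Lipocalins called higher numbered 3 without the filter, 2 with at least 10 counts in 3 libraries and 1 to 2 with 1 library left out. The median over all genes moved on the log2 scale from 0.11 to 0.73 with library size alone, and the share of calls that were higher from 51.5% to 63.6%. Each cause was not tested, apart from fewer samples or more genes tested where the alternative itself sets these.

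Replicate numbers did not pair the samples, as deviations of same-numbered libraries correlated at 0.058, 0.080 and -0.040. With the replicate block 11218 genes were called, against 11379, and 1 member. Lcn2 without Stra8-deficient library 3 was then -3.04 (log2). That fit spends most of its libraries on replicate terms that do not pair the samples. Its p-value does not measure the spread between males, and no change is read from it. Serpina3n lost its call under the block, at 3.79 with an adjusted p of 0.253. Depth limits Saa1, Saa2, Orm1, S100a8 and S100a9, which had at most 12 reads in any library.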
